A study of Mus musculus with 40 samples.

Results

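The choroid plexus epithelium was followed through 7 of its genes, Ttr, Folr1, Kl, Clic6, Kcnj13, Aqp1 and Prlr, which were taken by name from the 40213 gene symbols of the count tables. All 40 libraries were read for them, 20 of midbrain and 20 of spinal cord RNA, and each tissue had 5 groups of 4. All mice were 8-week-old male C57BL/6N animals. Con mice received saline in place of MPTP and saline at the acupoint GB34. MPTP-Veh mice received 4 intraperitoneal injections of MPTP at 20 mg/kg, given every 2 h, and saline at GB34. MPTP is a neurotoxin that damages dopaminergic neurons of the midbrain and is used to model Parkinson's disease. MPTP-SU mice received the same MPTP and then SUEHP, a herbal extract for acupoint injection, in 4 injections at GB34. MPTP-SU+S mice were also given the CB1 antagonist SR141716A (SR141714A in the sample labels) at 3 mg/kg, and MPTP-SU+T mice the PPARγ inhibitor T0070907 at 5 mg/kg. The MPTP model is a toxin model, and neither the labels nor the methods say where the midbrain was cut, whether plexus tissue was taken with it, or that libraries with 1 number came from 1 mouse, so p-values measure the spread between these libraries.

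The choroid plexus is a sheet of epithelium inside the ventricles of the brain that secretes cerebrospinal fluid and forms the barrier between it and the blood. Transthyretin, encoded by Ttr, is its best-known secreted product and carries thyroxine and retinol. Folr1 encodes folate receptor alpha, which moves folate across the epithelium, Kl encodes klotho, a co-receptor for FGF23 that is also shed, and Prlr encodes the prolactin receptor. Kcnj13 encodes the inward rectifier potassium channel Kir7.1, Aqp1 a water channel of the membrane that faces the ventricle, and Clic6 a protein of the chloride intracellular channel family. The spinal cord holds no choroid plexus.

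Levels are given as CPM, the counts of a gene after every library is brought to 1 common total, scaled between the libraries of a tissue by the trimmed mean of M values (TMM). The midbrain libraries held 11958200 to 16639823 counts and those of the spinal cord 14642808 to 16615378. Mitochondrial transcripts took 1.35% to 17.5% of the midbrain counts, with the lowest share in MPTP-Veh replicate 4. The tissue labels matched their markers. Th, whose enzyme makes the precursor of dopamine, lay at 17.04 to 110 CPM in the midbrain and 2.29 to 3.85 CPM in the spinal cord. Otx2, a forebrain and midbrain factor, had no count in any spinal cord library. Hoxc8, a trunk positional gene, lay at 54.6 to 78.8 CPM in the spinal cord and at no more than 0.156 CPM in the midbrain. A gene was called where edgeR's quasi-likelihood test gave a Benjamini-Hochberg adjusted p below 0.05 over all genes tested and the change exceeded 1.5-fold. The test covered 16629 genes in the midbrain, where Aqp1 lay under the filter on low counts, and 16682 in the spinal cord, where Folr1 did, so 6 of the 7 plexus genes were tested in each tissue.

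The 250 bases before the start of 3 of the genes are shown because Kcnj13 and Kl are 2 of the 3 genes whose Con and MPTP-Veh midbrain libraries did not overlap, and the Prlr stretch because it holds the only match to a searched motif. They are RefSeq sequences of build GRCm38.p6, given 5′ to 3′ on the strand of the gene, at chr1:87394730-87394979 (minus strand), chr5:150952357-150952606 (plus strand) and, for the second of 3 listed starts of Prlr, chr15:10223656-10223905 (plus strand). The bases that follow this Prlr start were in none of the GENCODE M21 transcripts searched, while those after the other two starts were. Capitals mark a match to a searched motif.
Kcnj13: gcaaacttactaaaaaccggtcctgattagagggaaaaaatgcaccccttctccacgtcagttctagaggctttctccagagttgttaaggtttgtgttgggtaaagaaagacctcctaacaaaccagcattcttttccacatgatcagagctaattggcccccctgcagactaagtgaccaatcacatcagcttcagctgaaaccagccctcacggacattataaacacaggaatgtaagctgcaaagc
Kl: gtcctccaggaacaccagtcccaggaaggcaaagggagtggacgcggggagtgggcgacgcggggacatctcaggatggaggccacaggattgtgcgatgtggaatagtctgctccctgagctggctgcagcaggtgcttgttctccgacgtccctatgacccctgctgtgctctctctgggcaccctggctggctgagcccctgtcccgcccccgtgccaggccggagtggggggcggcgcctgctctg
Prlr: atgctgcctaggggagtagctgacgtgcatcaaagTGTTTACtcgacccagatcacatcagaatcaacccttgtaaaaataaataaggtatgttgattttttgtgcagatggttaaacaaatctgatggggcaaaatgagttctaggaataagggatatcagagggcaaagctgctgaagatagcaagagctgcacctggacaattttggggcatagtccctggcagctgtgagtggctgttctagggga
The searched motifs, on both strands, were GGATTA, the core bound by OTX2, which is needed for the plexus to form, and TGTTTAC, a forkhead core as bound by FOXJ1 and its relatives. GGATTA was in none of the 250-base stretches of Kcnj13, Kl, Aqp1 or the 3 starts of Prlr, and 6.25% of 32851 promoters of that length hold it. TGTTTAC was found once, at bases -215 to -209 of the second Prlr start, and 3.17% of the promoters hold it. The GC content of the Kcnj13 stretch was 45.2% and that of the Kl stretch 66.8%. The stretches of Ttr, Folr1 and Clic6 are not shown.

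Ttr varied more between midbrain libraries than any other of the 7 genes. In the 4 Con libraries it was counted at 3.25, 1171, 66.3 and 524 CPM (replicates 1 to 4), or 51, 19629, 1049 and 8562 counts. In MPTP-Veh it lay at 1.71, 12.1, 6.02 and 14.9 CPM. Con replicates 2, 4 and 3 stood above all 16 libraries of MPTP-treated mice, in which Ttr ranged from 0.794 to 36.9 CPM around a median of 6.39, while Con replicate 1 lay inside that range. Con replicate 2 held 183 times and Con replicate 4 held 82.0 times the median of those 16 libraries. The standard deviation of log2 CPM within groups was 2.25 for Ttr, above that of 99.9% of the genes tested, whose median was 0.304. Within the 4 MPTP groups alone it was still 1.66, above 99.6% of genes, from 0.782 within MPTP-SU and 1.37 within MPTP-Veh to 1.96 with SR141716A and 2.18 with T0070907.

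**Figure D1:**
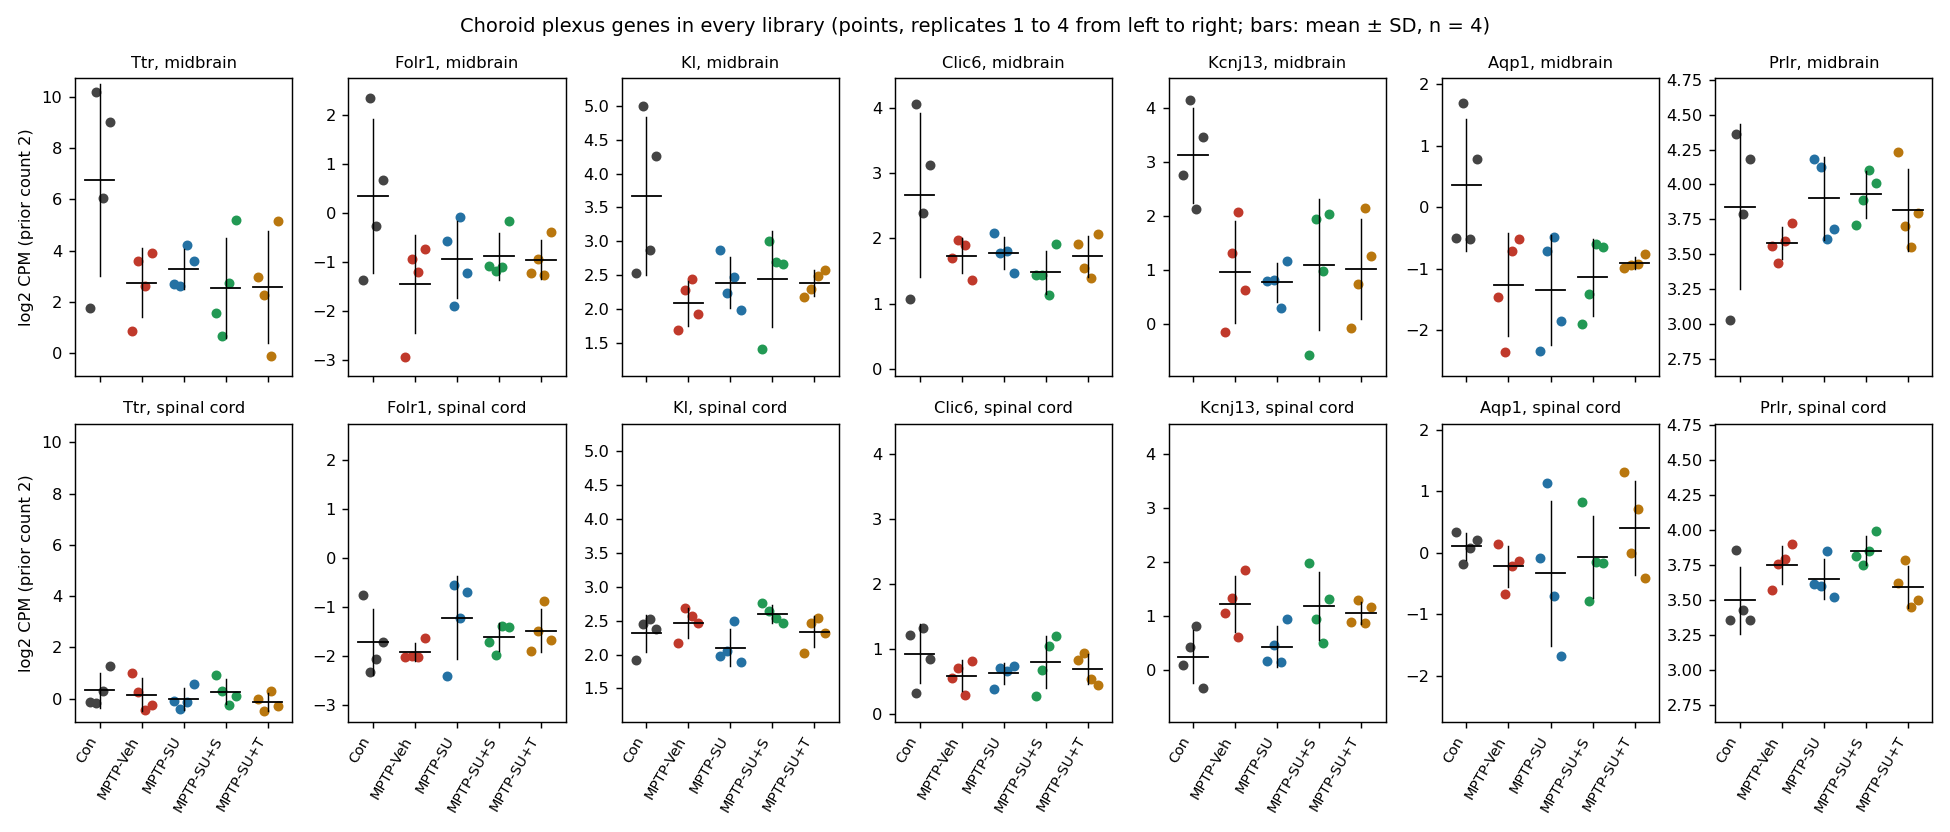
Level of the 7 choroid plexus genes in every library of the midbrain (upper row) and spinal cord (lower row), as log2 CPM with a prior count of 2, by group. Points are libraries and bars are the group mean and SD (n = 4); the dark grey Con points of Ttr in the midbrain spread from 3.25 to 1171 CPM, while Ttr in the spinal cord stays at 0.580 to 2.28 CPM.

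Folr1, the folate receptor, was low, and the same 2 Con libraries led it. It had 0.255, 4.95, 0.695 and 1.47 CPM in Con, which is 4, 83, 11 and 24 counts, and 0 to 0.813 CPM in the 16 MPTP libraries. The count of 0 in MPTP-Veh replicate 1 allows up to 3 counts, or 0.233 CPM. Klotho (Kl) had 5.67, 32.0, 7.20 and 19.03 CPM in Con and 3.11, 4.71, 5.30 and 3.67 CPM in MPTP-Veh, so that these groups did not overlap, with 2.53 to 7.93 CPM over the 16 MPTP libraries. The prolactin receptor (Prlr) lay at 8.02, 20.4, 13.7 and 18.05 CPM in Con and at 10.7 to 18.6 CPM over the 16 MPTP libraries. Con replicate 2 was its highest library, yet only 1.57 times the median of the 16, and Con replicate 1 was its lowest.

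Among the channels, Kcnj13 had 6.69, 17.7, 4.23 and 10.95 CPM in Con and 0.778, 2.36, 4.10 and 1.41 CPM in MPTP-Veh. Its groups did not overlap either, although Con replicate 3 and MPTP-Veh replicate 3 lay side by side. Kcnj13 was the one gene of the 7 for which Con replicate 1, with little Ttr, stood above all 16 MPTP libraries (0.546 to 4.31 CPM). Clic6 had 1.97, 16.5, 5.12 and 8.63 CPM in Con and 2.05 to 4.09 CPM in the 16 MPTP libraries, so that Con replicate 1 was the lowest of all 20 libraries and the other 3 Con libraries the highest. Aqp1 had 0.573, 3.10, 0.569 and 1.59 CPM in Con, or 9, 52, 9 and 26 counts, and 0.0654 to 0.565 CPM in MPTP-Veh. Those 2 groups did not overlap, but the lowest Con library (0.569 CPM, 9 counts) and the highest MPTP-Veh library (0.565 CPM, 6 counts) were next to equal.

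Con replicates 2 and 4 were the 2 highest of the 20 midbrain libraries for 6 of the 7 genes, Prlr being the exception. They were the 2 highest for 13 of 24 other choroid plexus epithelium genes and for 1.97% of all genes tested (328 of 16629). The share of 1.97% leaves out genes under the filter on low counts, while the counts of plexus genes include Aqp1 and others under it. The excess over the median of the 16 MPTP libraries was smaller in Con replicate 4 than in Con replicate 2 for all 6 genes. It was 44.4% of that in replicate 2 for Ttr, 44.2% for Aqp1, 40.8% for Clic6, 52.0% for Kl, 57.9% for Kcnj13 and 24.5% for Folr1, which rests on 24 counts in replicate 4. For the 13 other plexus genes it was 26.7% to 96.4% with a median of 51.3%. These percentages cover only genes for which both replicates exceeded all 16 MPTP libraries, a choice made on the same values. In these bulk libraries more plexus cells and more RNA per plexus cell cannot be told apart.

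**Figure D2:**
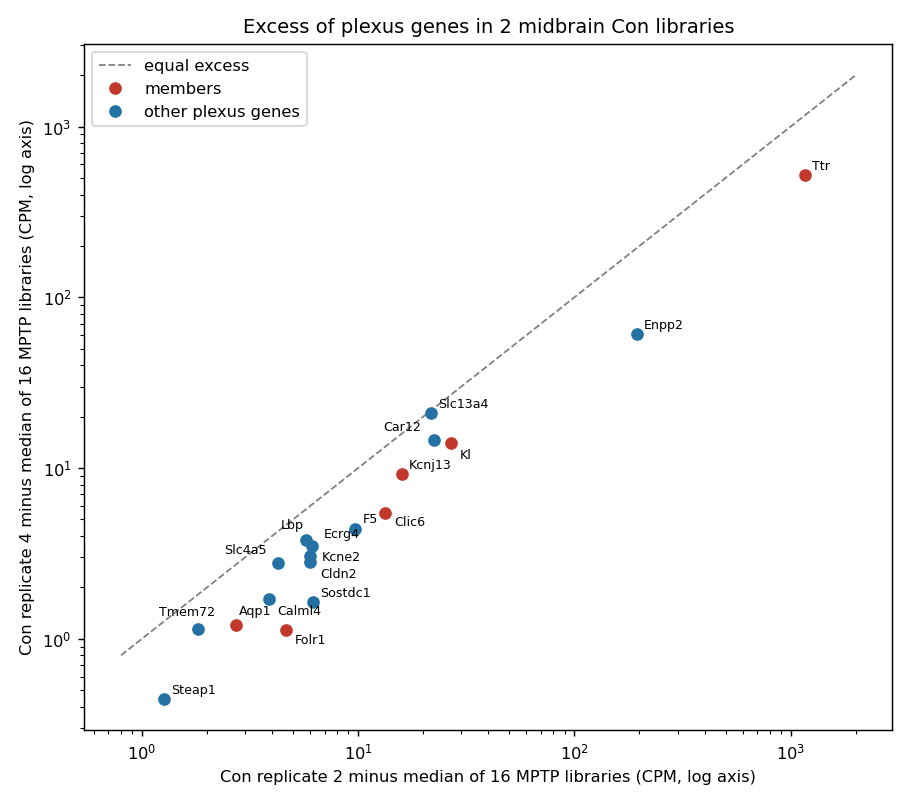
Excess of plexus genes in midbrain Con replicate 4 against that in Con replicate 2, each as CPM over the median of the 16 MPTP libraries, on log axes. Only genes for which both replicates exceeded all 16 MPTP libraries are drawn, so that an excess in both is fixed by this choice. The 6 red points are the genes described here, the 13 blue points other plexus genes, and all of them lie under the dashed line of equal excess, Ttr at 44.4% of it and Slc13a4, the highest, at 96.4%.

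Among the other plexus genes, the 4 with the highest mean level in the midbrain followed these libraries in part. Enpp2, a secreted enzyme that oligodendrocytes also express, had 620 and 486 CPM in Con replicates 2 and 4 and at most 466 CPM in the 16 MPTP libraries. Slc13a4, a sulfate transporter, had 33.2 and 32.4 CPM against at most 30.2 CPM. Slc29a4, a monoamine transporter, had 36.9 and 31.8 CPM, inside its MPTP range of 15.2 to 49.4 CPM. Otx2 had 16.2 and 12.6 CPM, inside its MPTP range of 9.83 to 26.6 CPM. Some lower genes, picked after their values were seen, stood further apart. Not all lower genes did, and both replicates exceeded all 16 MPTP libraries for 13 of the 24 other plexus genes. Kcne2, a potassium channel subunit, had 6.08 and 3.18 CPM against at most 0.397 CPM. Cldn2, a tight junction protein of leaky epithelia, had 6.44 and 3.30 CPM against at most 1.20 CPM. Car12, a carbonic anhydrase, had 24.3 and 16.5 CPM against at most 5.56 CPM, and Slc4a5, a sodium bicarbonate cotransporter, 4.83 and 3.37 CPM against at most 1.30 CPM.

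Markers of tissues that touch the plexus were read in the same libraries as summed CPM. The 12 ependymal genes summed to 41.6 and 40.9 CPM in Con replicates 2 and 4, inside the 19.2 to 53.4 CPM of the 16 MPTP libraries. The 12 leptomeningeal fibroblast genes summed to 582 and 523 CPM, above the 110 to 468 CPM of the MPTP libraries. Igf2, Dcn and Fmod, the highest of them, had 257, 43.3 and 59.4 CPM in Con replicate 2. The 16 MPTP libraries had at most 160, 42.4 and 41.4 CPM of these genes, and Con replicate 1, with little Ttr, had 171, 33.4 and 60.4 CPM. The 8 cortex and hippocampus genes summed to 611 and 354 CPM in Con replicates 2 and 4, inside the 126 to 618 CPM of the MPTP libraries. They summed to 627 CPM in Con replicate 1, where Ttr was low. The 11 hypothalamus and pituitary genes summed to 12.2 and 45.5 CPM in Con replicates 2 and 4, and to 458 CPM in Con replicate 3. These sums lay inside the 2.89 to 782 CPM of the MPTP libraries, whose upper end is a MPTP-Veh library. The sums reached 41.6 CPM in MPTP-SU, 79.8 CPM with SR141716A and 113 CPM with T0070907. Pomc, the highest of these genes by mean, reached 656 CPM in the MPTP libraries and had 6.26 CPM in Con replicate 3. Pmch had 274 CPM in Con replicate 3 and at most 94.0 CPM in the MPTP libraries. Avp, picked after its values were seen, had 85.6 CPM against at most 0.542 CPM. For the remaining lists the Con sums overlapped those of the MPTP libraries, at 310 to 404 CPM for 10 blood vessel genes, 3.10 to 7.28 CPM for 6 pineal and subcommissural genes, 127 to 165 CPM for 8 cerebellar genes, 399 to 685 CPM for 9 thalamus and habenula genes and 117 to 156 CPM for 11 carriers of folate, retinol and thyroxine. The part of these tissues in the level of the plexus genes was not tested.

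MPTP-Veh was compared with Con to ask what MPTP changed. All 6 plexus genes tested in the midbrain had lower estimates in MPTP-Veh and none was called, beside 0.018% of all genes (3 of 16629). The log2 fold change of Ttr was -5.68 (SE 1.41), with an edgeR p of 0.000741 before and 0.130 after adjustment. It was -2.64 (SE 0.77) for Folr1, -2.16 (SE 0.57) for Kcnj13, -1.92 (SE 0.43) for Kl, -1.31 (SE 0.41) for Clic6 and -0.35 (SE 0.22) for Prlr. The edgeR test gave p under 0.05 before adjustment for 5 of the 6 genes and for 3945 of 16629 genes, and adjusted p ran from 0.118 for Kl to 0.332 for Prlr. Con and MPTP-Veh did not overlap for Kl, Kcnj13 and Aqp1, which is 3 of the 7 genes. Among all genes tested, of which Aqp1 was not one, the share was 12.4%. Such separation of 4 from 4 libraries fixes the exact two-sided permutation test at its smallest value, p = 0.0286, and after adjustment over 56 tests that permutation p was 0.457 for each of the 3. The 19 other plexus genes tested had 0 calls by edgeR, 9 with p under 0.05 before adjustment and 15 below 0, with a median log2 fold change of -0.52, where that of all genes was 0.00013. Each list of neighbouring tissue and the carriers also had 0 calls, with medians from -1.93 for cortex and hippocampus to 0.19 for blood vessels, -0.60 for leptomeningeal fibroblasts and -0.0053 for ependymal cells.

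Con replicates 2 and 4 were then left out, a choice made after the data were seen that by its construction moves the estimates up. The log2 fold change was -2.01 (SE 1.23) for Ttr, -1.30 (SE 0.65) for Kcnj13, -0.70 (SE 0.77) for Folr1, -0.61 (SE 0.34) for Kl and -0.12 (SE 0.33) for Clic6. Prlr turned to 0.13 (SE 0.23), and none was called by edgeR, beside 0 of all 17192 genes tested in that fit. Without MPTP-Veh replicate 3 edgeR called 3 of the 6, Ttr, Kl and Kcnj13. DESeq2 in a fit of all 20 midbrain libraries called Ttr, Kl, Kcnj13 and Clic6. The share of all genes called in these fits is not given, so the calls cannot be set against it.

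**Figure D3:**
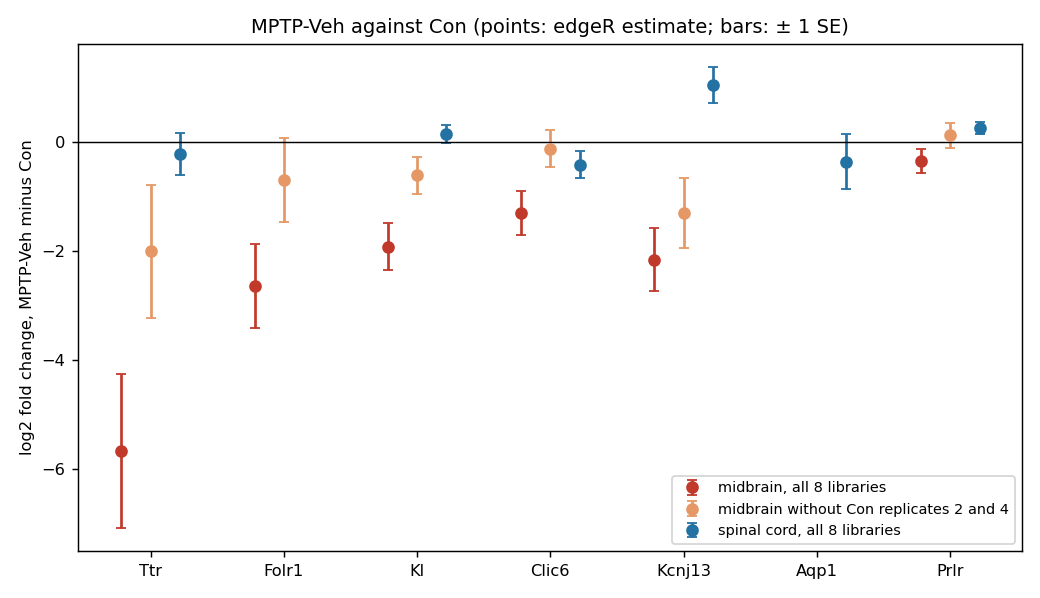
Log2 fold change of MPTP-Veh over Con from edgeR, with bars of 1 SE, for the midbrain (red), the midbrain without Con replicates 2 and 4 (orange) and the spinal cord (blue). Ttr moves from -5.68 to -2.01 when the 2 libraries are left out, and Kcnj13 lies below 0 in the midbrain and above 0 in the spinal cord; Aqp1 in the midbrain and Folr1 in the spinal cord were not tested.

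Over all 5 midbrain groups, 3 of the 6 genes differed by the edgeR F test, Ttr (adjusted p = 0.00817), Kcnj13 (0.0201) and Kl (0.0240), beside 7.1% of all genes. Clic6 (0.0521) and Folr1 (0.0642) lay just over the threshold and Prlr did not (0.643). The count was 0 without Con replicate 2, 1 (Ttr) without Con replicate 4 and 0 without both. In the fit without both, the adjusted p of the edgeR F test was 0.725 for Ttr, 0.386 for Kcnj13 and 0.673 for Kl. Calls among all genes were then 230 of 17192, so they fell for other genes too. The count of plexus genes was 5 without Con replicate 1 and 5 without MPTP-Veh replicate 4. Limma-voom called 0 of the 6. The share of all genes called in these other settings is not given.

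Among the 4 groups of MPTP-treated mice the levels overlapped. MPTP-SU against MPTP-Veh asks what SUEHP changed, and 0 of the 6 genes were called in the midbrain beside 13.5% of all genes (2237 of 16629). Ttr averaged 8.68 ± 5.93 CPM (SD, n = 4) with vehicle and 10.8 ± 6.00 CPM with SUEHP, with a log2 difference of 0.33 (SE 1.24). Kl averaged 4.20 ± 0.990 and 5.24 ± 1.44 CPM, and Clic6 3.24 ± 0.604 and 3.34 ± 0.594 CPM. Other transcripts moved between these groups. Alb, a liver gene, lay at 7.72 to 154 CPM in MPTP-Veh and at no more than 0.537 CPM in MPTP-SU, and the long noncoding RNA Gm26917 took 0.838% to 10.3% of counts in MPTP-Veh, 3.84% to 14.3% in MPTP-SU and 0.563% to 1.95% in Con. The labels give no library batch, a batch that coincides with the groups and the treatment cannot be told apart, and the part of these transcripts was not tested. The edgeR p before adjustment was above 0.05 for all 6 genes, from 0.140 for Prlr to 0.928 for Clic6. Of the 24 other plexus genes 19 were tested, and 1 was called, Slc29a4, which fell by 0.80 on the log2 scale (SE 0.18, edgeR adjusted p = 0.0104). The 2 antagonist groups were set against MPTP-SU to ask whether blocking CB1 or PPARγ altered the response, and 0 of 6 genes were called in either, beside 0.0% of all genes in both. There the log2 differences ran from -0.30 (SE 0.42) for Clic6 to 0.66 (SE 0.60) for Kcnj13 with SR141716A, and from -0.17 (SE 0.80) for Folr1 to 0.49 (SE 0.60) for Kcnj13 with T0070907. The smallest edgeR p before adjustment in these 2 comparisons was 0.288, so that no gene was under 0.05.

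In the spinal cord Ttr and Folr1 were low, and the medians of Kl (5.39 CPM, 5.45 in the midbrain) and Prlr (12.7 CPM, 13.4 in the midbrain) were close to those of the midbrain. Ttr lay at 0.580 to 2.28 CPM over the 20 libraries, which is 10 to 38 counts, and Folr1 at 0.0624 to 0.564 CPM, or 1 to 9 counts. Kl had 3.60 to 6.67 CPM, Clic6 1.09 to 2.38, Kcnj13 0.661 to 3.82, Aqp1 0.186 to 2.36 and Prlr 10.1 to 15.8 CPM. The standard deviation of log2 CPM within groups was above that of 98.4% of the genes tested for Aqp1, 94.6% for Ttr and 91.9% for Kcnj13. Per kilobase of the longest GENCODE M21 transcript, the order by median in the spinal cord was Kcnj13 (1.34 CPM per kb), Prlr (1.29), Kl (0.925), Ttr (0.704), Clic6 (0.401), Aqp1 (0.304) and Folr1 (0.140). In the midbrain on the same scale it was Ttr (5.96 CPM per kb), Kcnj13 (1.73), Prlr (1.35), Kl (0.936), Clic6 (0.884), Folr1 (0.277) and Aqp1 (0.178). The ranges of Kcnj13, Prlr and Kl overlapped in both tissues, and those of Kl, Ttr and Clic6 in the spinal cord did too.

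None of the 6 genes tested in the spinal cord was called in any comparison. The counts of 0 stood beside 0.0% of all genes in MPTP-Veh against Con, in MPTP-SU against MPTP-Veh and in MPTP-SU+S against MPTP-SU, 0.024% in MPTP-SU+T against MPTP-SU and 0.15% over 5 groups. Kcnj13 came nearest. It had 0.930, 1.21, 1.62 and 0.661 CPM in Con and 1.95, 2.39, 1.40 and 3.48 CPM in MPTP-Veh, so that the groups overlapped between 1.40 and 1.62 CPM. Its log2 fold change was 1.05 (SE 0.33), with an edgeR p of 0.00452 before and 0.243 after adjustment. Kcnj13 was then -0.87 (SE 0.33) in MPTP-SU against MPTP-Veh and 0.89 (SE 0.33) in MPTP-SU+S against MPTP-SU, with edgeR p of 0.0138 and 0.0120 before adjustment and 0.999 and 0.899 after it. These comparisons share the MPTP-SU libraries, which lay at 0.998, 1.25, 0.971 and 1.80 CPM. Kl followed the same order at -0.36 (SE 0.16) and 0.49 (SE 0.16), and Prlr differed by 0.25 (SE 0.11) between MPTP-Veh and Con, none of them past the adjusted threshold. In MPTP-Veh against Con edgeR gave p under 0.05 before adjustment for 2 of the 6 genes, Kcnj13 and Prlr, and for 2137 of 16682 genes.

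Con midbrain was set against Con spinal cord to place the genes. The fit over 40 libraries called 5 of the 7 higher in the midbrain, beside 16.4% of all genes in either direction. The log2 difference was 8.46 (SE 1.23) for Ttr, with an edgeR adjusted p of 1.28e-06. It was 3.16 (SE 0.50) for Kcnj13, 3.11 (SE 0.66) for Folr1, 2.13 (SE 0.34) for Clic6 and 1.71 (SE 0.33) for Kl, while Aqp1 (0.62, SE 0.54) and Prlr (0.43, SE 0.18) were not called. Without midbrain Con replicates 2 and 4, Ttr (4.78, SE 1.02), Kcnj13 (2.29, SE 0.54) and Clic6 (0.93, SE 0.30) were still called, and Folr1 (1.15), Kl (0.38), Aqp1 (-0.74) and Prlr (-0.05) were not. These 3 calls stood beside 2440 of all 17967 genes tested in that fit. Of the 24 other plexus genes 20 were tested and 9 called, all higher in the midbrain, among them Slc13a4 (2.44, SE 0.47) and Car12 (1.73, SE 0.48). Otx2, also called, had no count in the spinal cord, so its fitted difference is not given.

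The effect of MPTP-Veh against Con was itself compared between the tissues. The midbrain effect minus the spinal cord effect was -3.21 (SE 0.70) for Kcnj13 and -2.08 (SE 0.48) for Kl, both called by edgeR (adjusted p = 0.0355 and 0.0402), which is 2 of 7 genes beside 2.45% of all genes. For Ttr it was -5.47 (SE 1.92) with an adjusted p of 0.0758. The count was 0 without midbrain Con replicate 2 or 4, without spinal cord Con replicate 1 or 4 and without any of the 4 spinal cord MPTP-Veh libraries. It was also 0 without both midbrain Con replicates 2 and 4, where Kcnj13 stood at -2.35 and Kl at -0.75. That fit called 0 of all 17967 genes tested, so the loss was not particular to these 2 genes. The count of plexus genes was 3 without midbrain MPTP-Veh replicate 2. It was 0 with scaling by library size alone and 0 by limma-voom. The share of all genes called with single libraries left out and in these other fits is not given.

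Across the 20 midbrain libraries 5 of the 6 other genes were correlated with Ttr. Pearson's r of log2 CPM with Ttr was 0.867 for Folr1 (Spearman's rho 0.797), 0.866 for Clic6 (rho 0.680), 0.760 for Kl (rho 0.397), 0.715 for Aqp1 (rho 0.538), 0.589 for Kcnj13 (rho 0.305) and 0.499 for Prlr (rho 0.457). By a two-sided permutation test adjusted over 12 relations, 5 of the 6 values of r passed 0.05 (adjusted p = 0.00012 to 0.0156) and Prlr did not (0.0536), while for rho Folr1 (0.00012) and Clic6 (0.00816) alone did. Before adjustment the r of Folr1 had a permutation p of 1e-05, the smallest that 100000 resamples give. Without Con replicates 2 and 4, the libraries farthest from the median of Ttr, r was 0.685 for Folr1 (permutation p = 0.0157 adjusted) and 0.604 for Clic6 (0.0479), and 0.264 for Aqp1, 0.224 for Kl, 0.207 for Prlr and 0.0849 for Kcnj13. The relations of Kl, Aqp1 and Kcnj13 with Ttr thus rested on those 2 libraries. Within the 16 MPTP libraries, r was 0.647 for Folr1 and 0.462 for Clic6, and none of the 6 passed the adjusted permutation test (0.0665 for Folr1). On deviations from the group means of all 20 it was 0.832 for Folr1, 0.797 for Clic6, 0.658 for Prlr, 0.605 for Kl, 0.552 for Aqp1 and 0.261 for Kcnj13.

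**Figure D4:**
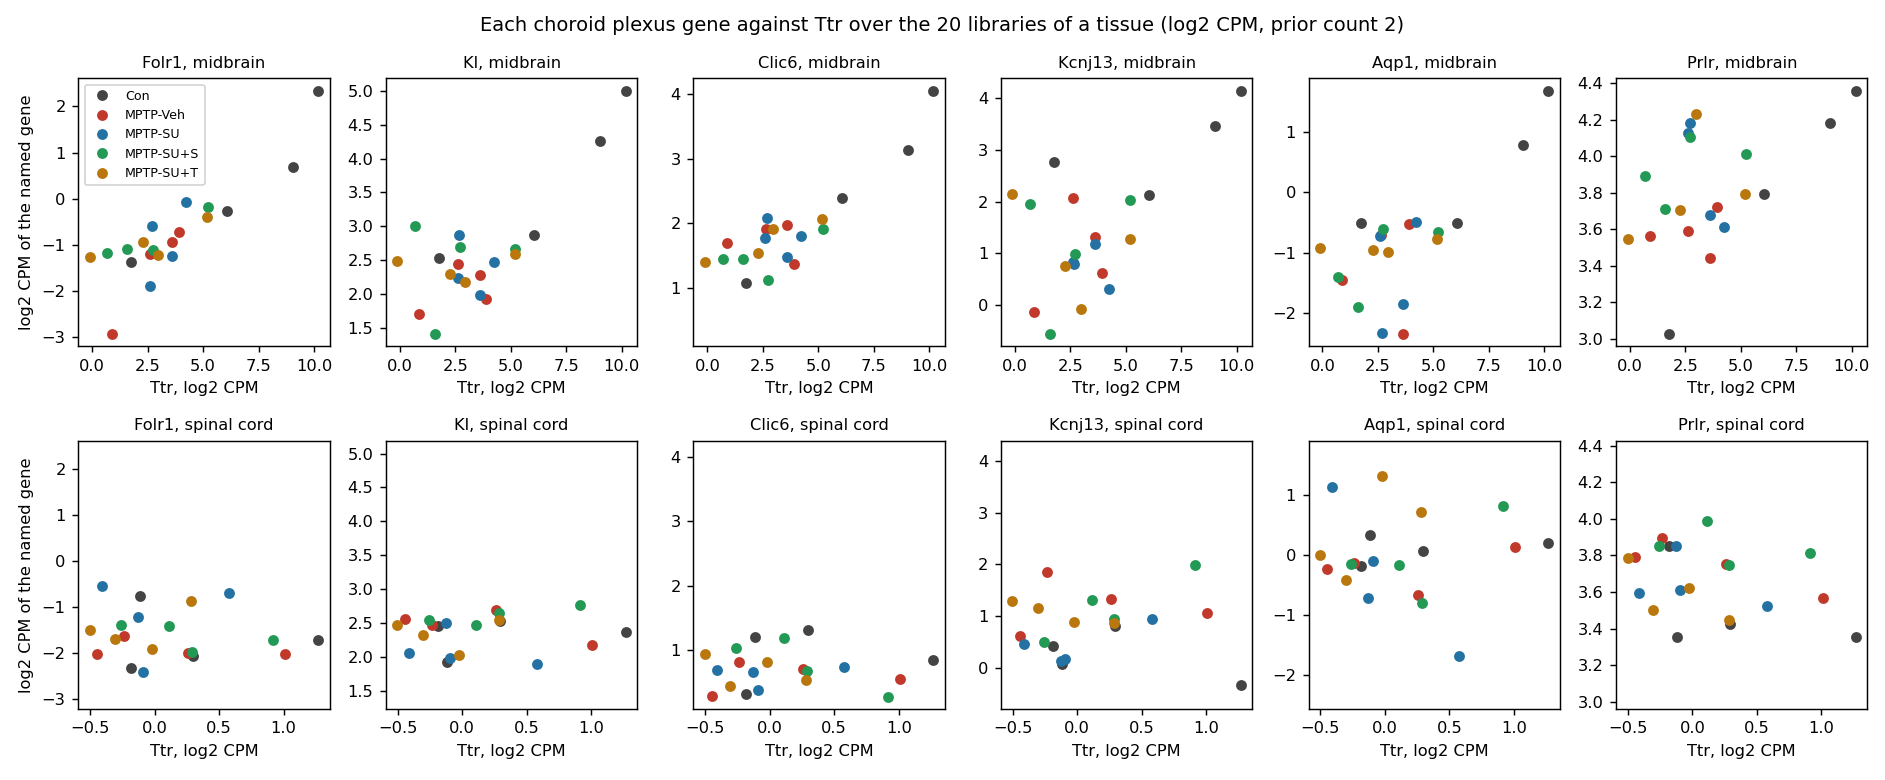
Log2 CPM of each of 6 plexus genes against that of Ttr over the 20 libraries of the midbrain (upper row) and spinal cord (lower row, on a narrower Ttr axis), coloured by group. In the midbrain Con replicates 2 and 4 stand at the upper right in every panel, and Folr1 (r = 0.867) and Clic6 (r = 0.866) also climb through the other libraries, while no panel of the spinal cord has such a slope.

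Over all 20 midbrain libraries, Folr1 and Clic6 were the 2 genes of the 16628 others tested whose level was most like that of Ttr. Kl was 12th, Kcnj13 182nd and Prlr 439th. Outside the plexus lists, the 10 genes most like Ttr over the 20 midbrain libraries were Drc7 (r = 0.826), Vwa3a (0.789), Celsr1 (0.786), Cpne2 (0.781), Cfap251 (0.759), D430019H16Rik (0.752), Bace2 (0.743), Best3 (0.742), Lrrc10b (0.739) and Ak7 (0.737). Drc7, Cfap251 and Ak7 encode parts of motile cilia. Drc7 had 0.127, 7.87, 1.39 and 4.47 CPM in Con, in the order of Ttr, and 0.123 to 3.21 CPM in the 16 MPTP libraries. The ranking and these values of r include Con replicates 2 and 4. Without those 2 libraries r with Ttr was 0.685 for Folr1, 0.604 for Clic6, 0.224 for Kl and 0.714 for Drc7. Over the 10 genes outside the plexus lists it then ran from 0.339 for Lrrc10b to 0.723 for D430019H16Rik. The likeness is a description.

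In the spinal cord none of the 6 genes was correlated with Ttr past the threshold. The 6 values of r ran from -0.356 for Prlr to 0.0709 for Kl, with permutation p adjusted over 12 relations of 0.213 or more. The genes most like Ttr there were Gm7931 (r = 0.756), Alb (0.747), Gm54268 (0.743), Cyp3a11 (0.723), Sirt4 (0.720), Hnrnpul1 (0.718), Ahsg (0.710), Scgb1a1 (0.708), Pnma8c (0.706) and Kri1 (0.704). Alb (albumin), Ahsg and Cyp3a11 are genes of the liver, the other main site of Ttr expression, and Scgb1a1 is a secretory protein of the airway. Alb lay at 5.78 to 21.2 CPM in the spinal cord, and the ratio of Ttr to Alb stayed between 0.0543 and 0.144. In the midbrain Alb had 5.81 to 154 CPM in the 8 Con and MPTP-Veh libraries and at most 0.537 CPM in the 12 libraries of SUEHP-treated mice, 5 of which had no count (up to 3 counts, or 0.220 CPM, in each).

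The midbrain levels of Ttr did not follow Alb (r = 0.250 over 20 libraries, 0.0424 without Con replicates 2 and 4). Con replicates 2 and 4, with 1171 and 524 CPM of Ttr, held 6.74 and 6.12 CPM of Alb, and Con replicate 1, with 3.25 CPM of Ttr, held 16.04 CPM. MPTP-SU+S replicate 4 and MPTP-SU+T replicate 4, the highest MPTP libraries for Ttr, held 0.0629 and 0 CPM of Alb. MPTP-Veh replicate 4 had the most Alb, 154 CPM, with 14.9 CPM of Ttr, a ratio of 0.0965 that lies within that of the spinal cord libraries, as does the 0.138 of MPTP-Veh replicate 1. The part of liver transcripts in the Ttr counts of those libraries and of the spinal cord was not tested.

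**Figure D5:**
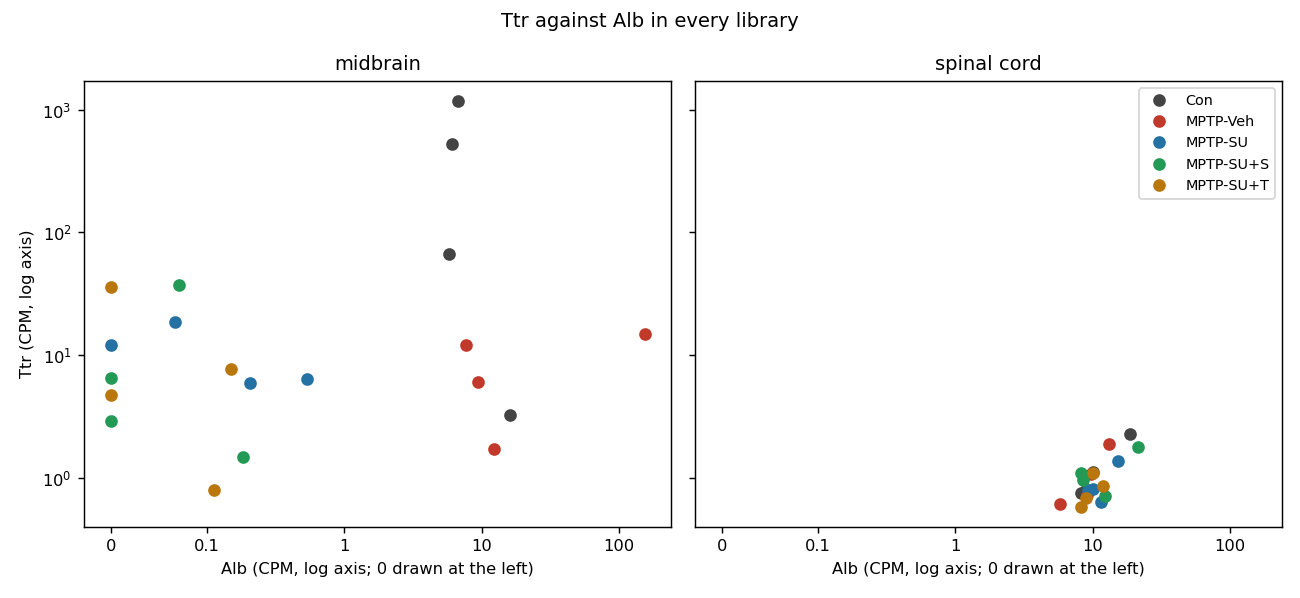
Ttr against Alb in CPM on log axes, with a library per point and the groups in colour, for the midbrain (left) and spinal cord (right). In the spinal cord Ttr climbs with Alb (r = 0.747), and in the midbrain the highest Ttr points (Con, 1171 and 524 CPM) have 6.74 and 6.12 CPM of Alb, while the 12 libraries of SUEHP-treated mice have at most 0.537 CPM of it.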

How the data were processed

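RNA of mouse midbrain and spinal cord was sequenced after poly(A) selection (CORALL V2 libraries, paired-end). The deposited files hold estimated counts per gene, which the authors made with fastp, STAR and Salmon. The submitters' processing notes also name GATK and build GRCm39. Versions and annotation are not given in the sources used here. The methods and labels name different RNA kits. The values were already whole, so rounding changed none.

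The counts were filtered (filterByExpr), scaled by TMM and tested with edgeR 4.0.16 (glmQLFit, glmQLFTest; R 4.3.3), in 1 fit per tissue of 20 libraries and 1 of all 40 for contrasts between tissues, as tested on simulated data. Alternatives used limma 3.58.1 (voom) and DESeq2 1.42.0, other scalings and filters, a replicate block and each library left out. Log2 CPM for correlations had a prior count of 2. Permutation tests used all splits of 4 against 4, or 100000 resamples.

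Genes were named by this rule: the 7 genes in every comparison, up to 8 of the other plexus genes, the 10 genes per tissue most like Ttr by r, and at most 3 of each neighbouring list. The genes, lists and rule were chosen with earlier results of these data known. Th, Hoxc8, Kcne2, Cldn2, Car12, Slc4a5 and Avp were named after their values were seen. Promoters came from RefSeq (GRCm38.p6) and transcript lengths from GENCODE M21; 4 of the 7 genes had a promoter entry, and no coordinate of the count files was used.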

Additional observations from a re-analysis of the deposited data

Results flagged for a closer look

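Among 60 groups of 4 libraries examined for a single library far from the other 3 by Dixon's ratio 2 were found, and chance gives about 1 in 20. Folr1 in midbrain MPTP-SU+S replicate 4 was at 0.755 CPM, 12 counts, where the other 3 libraries had 0.307 to 0.341 CPM. That library also had the highest Ttr of the group, 36.9 CPM. Prlr in spinal cord Con replicate 2 was at 14.3 CPM beside 10.1, 10.6 and 10.1 CPM. Without that library 1 of the 6 genes passed the test over 5 spinal cord groups, and the share of all genes that passed there is not given.

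The effect of MPTP-Veh against Con differed between the tissues for Kcnj13 (a difference of -3.21 on the log2 scale) and Kl (-2.08) by the edgeR interaction contrast. Kcnj13 was lower in MPTP-Veh in the midbrain and higher in the spinal cord, and neither effect was called on its own. Both differences lost the adjusted threshold when midbrain Con replicate 2 or 4 was left out. Without both of these libraries 0 of all 17967 genes tested were called.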

How the results depend on the processing

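In the midbrain, MPTP-Veh against Con gave 4 of 6 by DESeq2, and 0 to 3 with each library left out (3 without MPTP-Veh replicate 3). The test over 5 midbrain groups gave 0 by limma-voom, 0 without Con replicates 2 and 4 and 0 to 5 with each library left out, and over the spinal cord groups 0 to 1. Con midbrain against Con spinal cord gave 3 with at least 10 counts in every library, where fewer genes could be tested, and 3 without Con replicates 2 and 4. The tissue difference gave 0 with library size alone, 0 by limma-voom, 1 with no filter, 1 with at least 10 counts, 3 by DESeq2, 0 without the 2 Con libraries and 0 to 3 with each library left out. Relations with Ttr past the threshold numbered 2 in the midbrain without the 2 farthest libraries, 0 in the 16 MPTP libraries and, on deviations from group means, 1 in the spinal cord (Prlr, r = -0.564). All settings for the tissue difference, the 16 MPTP libraries and the omission of Con replicates 2 and 4 were chosen after seeing the data. Without Con replicates 2 and 4, the calls among all genes were 0 of 17192 in midbrain MPTP-Veh against Con and 230 of 17192 over 5 midbrain groups. They were 2440 of 17967 for Con midbrain against Con spinal cord and 0 of 17967 for the tissue difference. For the other settings the share of all genes called is not given, so these counts of plexus genes cannot be set against it. The causes were not tested.

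Single log2 values that changed sign were uncalled throughout. Without Con replicates 2 and 4 these were Prlr in MPTP-Veh against Con (0.13), Aqp1 (-0.74) and Prlr (-0.053) between tissues and Clic6 in the tissue difference (0.30). In midbrain MPTP-SU against MPTP-Veh it was Clic6 with library size alone (-0.0044). In MPTP-SU+S against MPTP-SU they were Ttr (-0.77) and Folr1 (0.077) by limma-voom. In MPTP-SU+T against MPTP-SU they were Ttr (-0.78) and Kl (0.0013) by limma-voom, and Kl (0.063) and Clic6 (0.034) with library size alone. In the spinal cord it was Aqp1 in MPTP-SU against MPTP-Veh by limma-voom (-0.20). Spinal cord r with Ttr changed sign for Clic6 (0.028) and Aqp1 (0.017) with library size alone, Kl (-0.054) and Aqp1 (0.027) on deviations and Folr1 (0.016) without the 2 farthest libraries.

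With each library left out in turn, midbrain MPTP-SU against MPTP-Veh ran from -0.085 to 0.69 for Ttr, -0.069 to 0.14 for Clic6 and -0.72 to 0.072 for Kcnj13. MPTP-SU+S against MPTP-SU ran from -1.59 to 0.56 for Ttr, -0.47 to 0.42 for Folr1, -0.058 to 0.38 for Kl and -0.079 to 0.11 for Prlr. MPTP-SU+T against MPTP-SU ran from -1.33 to 0.61 for Ttr, -0.49 to 0.31 for Folr1, -0.15 to 0.16 for Kl, -0.18 to 0.061 for Clic6, -0.043 to 0.76 for Kcnj13 and -0.24 to 0.016 for Prlr. In the spinal cord, Ttr ran from -0.64 to 0.27 in MPTP-Veh against Con, -0.53 to 0.17 in MPTP-SU against MPTP-Veh and -0.36 to 0.10 in MPTP-SU+T against MPTP-SU. Clic6 ran from -0.070 to 0.12 and -0.028 to 0.16 in the last 2, Aqp1 from -0.59 to 0.57 in MPTP-SU against MPTP-Veh and -0.41 to 0.87 in MPTP-SU+S against MPTP-SU, and Prlr from -0.13 to 0.018 in MPTP-SU+T against MPTP-SU. Aqp1 between tissues ran from -0.070 to 0.87.

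The labels do not say what the replicate numbers mark, and not every pair passed a correlation of 0.1, so the samples were not treated as paired. Deviations of same-numbered libraries correlated at -0.168 to 0.378 in the midbrain (13 of 40 pairs over 0.1) and -0.171 to 0.229 in the spinal cord (6 of 40). Between midbrain MPTP-Veh, MPTP-SU and MPTP-SU+T, replicates 1, 2 and 4 correlated at 0.140 to 0.378 in all 9 pairs, and replicate 3 in none of 3 above 0. With the number as a block, Kl lost the test over 5 midbrain groups (adjusted p = 0.0540 in edgeR, 2 genes called), MPTP-Veh against Con called 0 plexus genes in the midbrain and the tissue difference 2, as without it, and the signs turned for Ttr in MPTP-SU+S (-0.66) and MPTP-SU+T (-0.50) against MPTP-SU and for Kl in MPTP-SU+S (-0.00044). Folr1 in both tissues and Aqp1 in the midbrain rest on few counts.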
